A study of Homo sapiens with 3 samples.

Results

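The secretoglobins and surfactant proteins of the airway and the alveolus were followed in RNA-seq of teratomas as a set of 8 genes, SCGB1A1, SCGB3A1, SCGB3A2, SFTPA1, SFTPA2, SFTPB, SFTPC and SFTPD. They were chosen by symbol and are 8 of the 27307 genes in the deposited tables. For each symbol with several transcript entries, the entry with the highest mean level was kept. The samples were 3 replicate libraries of teratoma, called teratomas 1, 2 and 3, and there was no comparison group. All were grown from H1, a widely used established human embryonic stem cell line, with no genetic change or treatment named. Immunodeficient SCID-beige mice received 1000000 of these cells by subcutaneous injection, and tumours were collected 3 to 4 weeks later. Whether each library is a tumour or animal of its own is not stated, so the tests cover only the spread between these libraries, which may be separate tumours or pieces of fewer. Blood cells, vessels and other host tissue can be present in such a graft, and it is not stated whether mouse reads were removed.

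Secretoglobins are small secreted proteins that form disulfide-linked dimers. SCGB1A1, the club cell secretory protein, is the most abundant product of the non-ciliated secretory cells of the airways and is also made in uterus and prostate. SCGB3A1 and SCGB3A2 are its relatives in proximal and distal airways, and SCGB3A2 appears early in the embryonic lung. Pulmonary surfactant is a lipid film made by alveolar type 2 cells. SFTPB and SFTPC are its hydrophobic proteins, which spread the lipids. SFTPA1, SFTPA2 and SFTPD are collectins, soluble lectins that bind microbes and lipids. NKX2-1 and the FOXA factors are known activators of several of these genes in lung.

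The start-site windows of 3 members are shown because they belong to the better-covered members with an entry, SCGB3A2 and SFTPD, and to SCGB3A1, the paralogue that was close to absent. Each runs from 250 bases before to 50 after the annotated start, from RefSeq on GRCh38.p14, whereas the expression tables are on hg19. Of the 8 members 6 had such an entry, and SCGB1A1 and SFTPC had none. The SCGB3A2 window is chr5:147878461-147878760 on the plus strand, the SCGB3A1 window chr5:180591450-180591749 on the minus strand and the SFTPD window chr10:79949056-79949355 on the minus strand. Capitals mark matches on either strand to CACTTGA or CACTTGG, which hold the core bound by NK2 factors such as NKX2-1, and to TATAAA.
SCGB3A2: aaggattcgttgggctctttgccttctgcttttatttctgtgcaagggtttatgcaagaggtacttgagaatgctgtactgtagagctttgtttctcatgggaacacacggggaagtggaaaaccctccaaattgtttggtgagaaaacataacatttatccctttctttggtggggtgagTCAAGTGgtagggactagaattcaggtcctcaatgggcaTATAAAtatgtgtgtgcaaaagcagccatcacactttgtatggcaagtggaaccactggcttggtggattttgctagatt
SCGB3A1: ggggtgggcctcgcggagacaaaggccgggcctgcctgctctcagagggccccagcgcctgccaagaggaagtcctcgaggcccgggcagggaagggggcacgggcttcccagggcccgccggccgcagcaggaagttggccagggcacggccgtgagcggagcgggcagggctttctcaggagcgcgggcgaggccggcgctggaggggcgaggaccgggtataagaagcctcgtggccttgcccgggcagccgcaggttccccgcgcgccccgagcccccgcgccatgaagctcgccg
SFTPD: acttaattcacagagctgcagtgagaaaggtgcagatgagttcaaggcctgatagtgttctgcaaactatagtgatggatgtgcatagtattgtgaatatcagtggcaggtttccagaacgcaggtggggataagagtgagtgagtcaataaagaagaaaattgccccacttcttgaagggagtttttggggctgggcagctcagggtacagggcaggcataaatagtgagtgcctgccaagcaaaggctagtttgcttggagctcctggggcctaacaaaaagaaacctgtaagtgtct
The SCGB3A2 window held 1 NK2 match, whose first base lay at position -69 from the start, and 1 TATAAA match at -30. Over 35116 windows of the same length, 6.07% held an NK2 match and 11.5% a TATAAA match. The SCGB3A1 and SFTPD windows held neither. No forkhead match (TGTTTAC or TGTTTGC, on either strand, in 7.17% of windows) lay in these 3 windows, while SFTPA1 and SFTPA2 each had 1 match in a start window. Base composition separated the secretoglobin relatives, with 32 CG dinucleotides and 75.3% G and C in the SCGB3A1 window against 2 and 43.3% in the SCGB3A2 window. The median window had 14 CG dinucleotides and 58.7% G and C. These matches are descriptions of letters and do not show binding.

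The RPKM values imply totals of 46243199, 45815402 and 43605459 reads for the libraries of teratomas 1, 2 and 3. Which reads these totals include is not given. Levels are RPKM, the authors' reads per kilobase of transcript length and per 1000000 reads of the library, and intervals are exact 95% Poisson intervals of the reads, which cover counting error only. Teratoma 3 stood apart in markers outside the set. Each of the 10 neuron markers was highest there, with summed levels of 754, 951 and 2530 RPKM in teratomas 1, 2 and 3. TUBB3, a neuronal tubulin, stood at 435, 510 and 1216 RPKM and STMN2, a microtubule regulator, at 103, 137 and 440. Each of 8 fibroblast and each of 8 general epithelium markers was lowest there, with sums of 1933, 1587 and 428 RPKM and of 833, 843 and 205 RPKM in the same order. COL1A1 and COL3A1, fibrillar collagens, stood at 699, 475 and 128 RPKM and at 427, 443 and 114 RPKM.

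SCGB1A1 was the one member with a substantial level. It stood at 35.1, 17.7 and 1.83 RPKM in teratomas 1, 2 and 3, on 734, 367 and 36 reads. Teratoma 1 was thus the highest and teratoma 3 the lowest, and the counting intervals of 32.6 to 37.8, 15.96 to 19.6 and 1.28 to 2.53 RPKM did not overlap. The mean was 18.2 ± 16.7 RPKM (SD, n = 3), and 12.6% of genes had a higher mean. Teratoma 1 exceeded teratoma 2 by 1.98-fold (interval 1.75 to 2.25) and teratoma 3 by 19.2-fold (13.8 to 27.7). Teratoma 2 exceeded teratoma 3 by 9.70-fold (6.88 to 14.1). These ratios compare single libraries, and in bulk tumour RNA fewer cells of a type and less RNA per cell cannot be told apart. SCGB1A1 supplied 86.8%, 84.8% and 39.1% of all reads of the 8 members in teratomas 1, 2 and 3.

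SCGB3A2, the secretoglobin of distal airways, had the same order at lower levels. It stood at 2.63, 0.379 and 0.0885 RPKM in teratomas 1, 2 and 3, on 63, 9 and 2 reads. Only teratoma 1 passed 1 RPKM, and its interval of 2.02 to 3.36 RPKM lay above those of teratoma 2 (0.173 to 0.720) and teratoma 3 (0.0107 to 0.320), which overlapped each other. The ratio of teratoma 1 to teratoma 2 was 6.94 (interval 3.43 to 15.9), and that to teratoma 3 was 29.7 (7.89 to 251) on 2 reads in the lower library. Set against SCGB1A1 in the same library, SCGB3A2 came to 7.49% of its RPKM in teratoma 1 (interval 5.70% to 9.70%). The share was 2.14% in teratoma 2 (0.971% to 4.11%) and 4.85% in teratoma 3 (0.565% to 18.8%). Teratomas 1 and 2 therefore differed in this share beyond counting error, and teratoma 3 had too few reads to place. In the GENCODE 29 transcripts, 3.92% of the 50-base windows of SCGB3A2 also occurred in another gene, and none of the windows of SCGB1A1 did.

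SCGB3A1, the relative made in proximal airways, was close to absent. It had 0, 0 and 3 reads in teratomas 1, 2 and 3, or 0, 0 and 0.148 RPKM. At its length of 466 bases a count of 0 allows up to 0.139 RPKM in teratoma 1 and 0.141 in teratoma 2, taken as 3 reads, and the exact upper bounds were 0.171 and 0.173 RPKM. Its 3 reads in the library where the other airway secretoglobins were lowest had an interval of 0.0304 to 0.431 RPKM, which overlapped those of both other libraries.

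SFTPD, the surfactant collectin that many epithelia outside the lung also make, was the most even member. It stood at 0.657, 0.595 and 0.751 RPKM in teratomas 1, 2 and 3, on 39, 35 and 42 reads. All 3 libraries had overlapping intervals, with the outer bounds at 0.415 and 1.01 RPKM. The mean was 0.668 ± 0.0782 RPKM (SD, n = 3), a spread of 11.7% of the mean against 91.4% for SCGB1A1 and 135% for SCGB3A2. The ratio of teratoma 1 to teratoma 3 was 0.876 (interval 0.551 to 1.39). Relative to SCGB1A1 in the same library, SFTPD was at 1.87% (interval 1.32% to 2.58%) in teratoma 1, 3.36% (2.30% to 4.76%) in teratoma 2 and 41.1% (25.7% to 66.0%) in teratoma 3. No window of SFTPD was shared with another gene.

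The hydrophobic surfactant proteins were at the edge of detection. SFTPC, whose product is confined to alveolar type 2 cells in adult lung, had 3, 11 and 0 reads in teratomas 1, 2 and 3, or 0.0787, 0.291 and 0 RPKM. The reads in teratoma 2 had an interval of 0.145 to 0.521 RPKM, above the upper bound of 0.103 RPKM for 0 reads in teratoma 3, and it overlapped the interval of teratoma 1 (0.0162 to 0.230). Among the 6 SFTPC entries, those of 975 and 983 bases had 5 reads in teratoma 1 and the other entries 3, while all 6 had 11 reads in teratoma 2 and 0 in teratoma 3. SFTPB had 6, 3 and 2 reads, or 0.0457, 0.0231 and 0.0161 RPKM, with intervals that all overlapped. Of the SFTPB windows 1.78% also occurred in other genes.

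The SFTPA genes were as low. SFTPA2 had 1, 8 and 5 reads in teratomas 1, 2 and 3, or 0.00959, 0.0774 and 0.0508 RPKM. SFTPA1 had 0, 0 and 2 reads in each of its 6 entries, or 0, 0 and 0.0223 RPKM in the kept one. The pair are close copies: 572 windows of 50 bases were common to both, 22.4% of those of SFTPA1 and 20.7% of those of SFTPA2. How the authors placed reads that match both is not given, so the split between them is uncertain. The 5 lowest members together had 10, 22 and 12 reads in teratomas 1, 2 and 3.

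**Figure D1:**
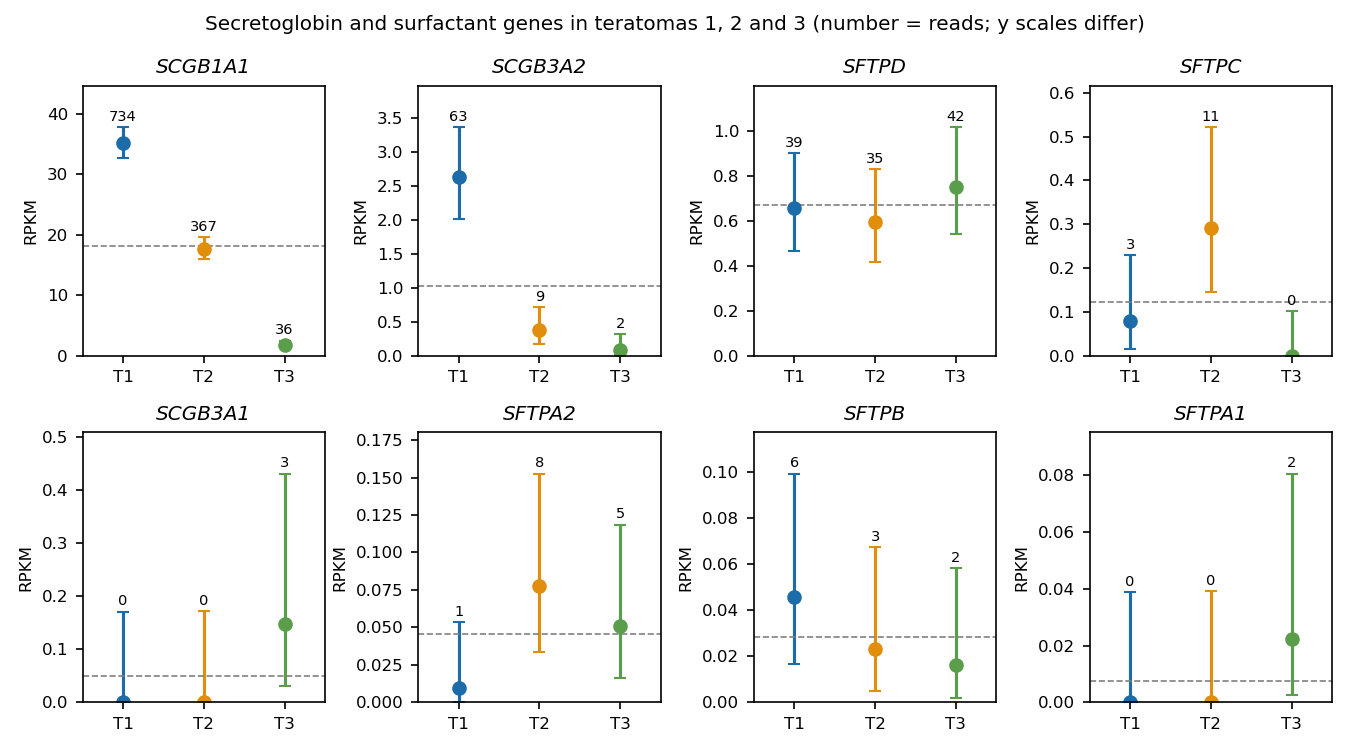
RPKM of the 8 genes in teratomas 1, 2 and 3 (T1, T2, T3), with exact 95% Poisson intervals of the reads as bars, the read number above each point and the 3-library mean as a dashed line; each panel has its own y scale. SCGB1A1 has 734, 367 and 36 reads and SCGB3A2 63, 9 and 2, SFTPD stays between 35 and 42, and the others have at most 11.

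Detection is used for at least 1 RPKM in all 3 libraries. By that rule 1 of the 8 members, SCGB1A1, was detected, against 52.7% of all genes. Under 1 RPKM in every library were 6 members. No share over all genes was taken for this count, so it cannot be read as unusual or usual. SFTPD had the highest mean of those 6, and 61.0% of all genes had a higher mean than SFTPD. The median member had a mean of 0.0863 RPKM, and the median of all genes was 2.05. At least 1 library had 0 reads for 3 members, SFTPC, SCGB3A1 and SFTPA1, which held for 24.3% of all genes. The order of mean levels was SCGB1A1, SCGB3A2, SFTPD, SFTPC, SCGB3A1, SFTPA2, SFTPB and SFTPA1. Neighbours in that order were compared within libraries on the log2(RPKM + 1) scale, which understates differences of low genes. The order was taken from the means of these same libraries, so the direction of a difference is not independent support for it. SCGB1A1 lay above SCGB3A2 in 3 of 3 libraries, by 2.82 ± 1.27 (SD, n = 3, exact two-sided sign-flip permutation p = 0.25, Benjamini-Hochberg adjusted p = 0.875 over 7 pairs). SFTPD lay above SFTPC in 3 of 3, by 0.58 ± 0.25, with the same exact p of 0.25 and adjusted p of 0.875. With the entries of a gene summed, which counts the same SFTPC reads once for each entry, the difference was 0.11 (exact permutation p = 0.75), so it no longer held in every library. The smallest p that 3 libraries allow is 0.25, so no pair could pass 0.05. With the kept entries, SFTPD and SFTPC were the one pair of neighbours whose ranges over libraries lay apart. SCGB3A2 exceeded SFTPD in 1 of 3 libraries, by 0.08 ± 0.94 (exact permutation p = 1), so their order rested on teratoma 1. Without teratoma 1 the difference was -0.45. The other 4 pairs of neighbours had mean differences of 0.00 to 0.09, each smaller than its SD over the libraries.

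Varying is used for a gene with 2 or more units of log2(RPKM + 1) between its lowest and highest teratoma. SCGB1A1 was the 1 varying member of 8, against 1.52% of all genes and 3.36% of the 9957 genes whose mean reached 5 RPKM. On this scale the 6 members under 1 RPKM in every library could not vary, nor could SCGB3A2 at 2.63 RPKM or less. Their level thus fixed the call, which says nothing on how evenly they were expressed. The range of SCGB1A1 was 3.68, and 19 of all 27307 genes had a larger one. Without teratoma 3 the range was 0.95 and no member varied. SCGB3A2 came next with a range of 1.74, and joined SCGB1A1 with a pseudocount of 0.1 RPKM, which gave 2 varying members. The share of all genes was not taken without teratoma 3 or with this pseudocount. The range was 0.13 for SFTPD, and the median was 0.17 over the 8 members and 0.28 over all genes. The scale keeps the ranges of low genes small, so these medians also depend on level. The order teratoma 1 above 2 above 3 was seen for 3 members, SCGB1A1, SCGB3A2 and SFTPB, and for 27.3% of the 23285 genes with any read, so this count is near the background.

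**Figure D2:**
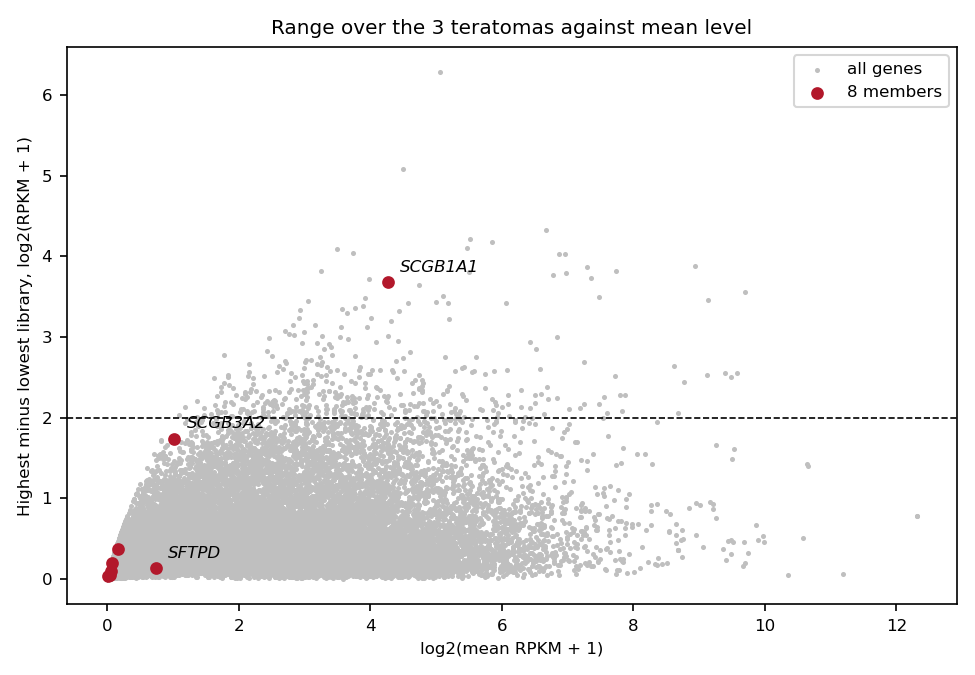
Highest minus lowest library on the log2(RPKM + 1) scale against log2(mean RPKM + 1) for all genes (grey) and the 8 members (red), with the level of 2 used to count varying genes as a dashed line. SCGB1A1 lies at 3.68 with 19 genes above it, SCGB3A2 at 1.74 under the line, and SFTPD at 0.13.

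The genes whose profile over the 3 libraries lay nearest to that of SCGB1A1 were products of the pancreas and gut. Likeness was the Euclidean distance between log2(RPKM + 1) values after subtracting each gene's mean, among the 9956 genes outside the set whose mean reached 5 RPKM. CTRB1, a chymotrypsinogen, lay at 0.29, with 60.8, 27.6 and 4.74 RPKM in teratomas 1, 2 and 3. CTRB2, its near-identical copy, lay at 0.35 with 70.2, 30.3 and 5.64 RPKM, and reads of the pair may be shared. GCG, the glucagon gene, lay at 0.46 with 29.98, 10.8 and 1.77 RPKM. Within a distance of 0.5 there were 3 genes for SCGB1A1 and 60 for SCGB3A2. Those nearest to SCGB3A2 were IFI6, an interferon-induced gene, at 0.08, SCX, a tendon factor, at 0.09, and CTSK, a cathepsin of bone-resorbing cells, at 0.11. IFI6 had 21.8, 8.34 and 6.33 RPKM in teratomas 1, 2 and 3, which is a much smaller ratio between libraries than that of SCGB3A2. At the low level of SCGB3A2 the pseudocount of 1 shrinks its range, so these 3 genes are near on the log2(RPKM + 1) scale and not in ratio. With 3 libraries, a near profile carries no test.

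Markers of the airway secretory cell were mostly undetected beside SCGB1A1. Of the 12 in the list 3 were detected and 6 were under 1 RPKM in every library. AGR2, a disulfide isomerase of mucus-secreting cells, stood at 42.8, 33.3 and 13.6 RPKM in teratomas 1, 2 and 3, and WFDC2, a secreted protease inhibitor homologue, at 34.9, 23.2 and 12.7. Both, like KRT7, are also made by other epithelia. CYP2F1, a cytochrome of lung, had 3, 2 and 0 reads, and BPIFA1 and BPIFB1, secreted proteins of upper airways, had at most 1 read in a library. MUC5AC, a gel-forming mucin of airway and stomach, stood at 1.499, 0.773 and 0.189 RPKM and LYPD2 at 2.55, 1.58 and 0.811. Both had the order of SCGB1A1, teratoma 1 above 2 above 3. That order held for 8 of the 12 genes, against 27.3% of the 23285 genes with any read. It was not particular to this list, since it also held for 6 of 8 fibroblast and 5 of 8 general epithelium markers. It held for 0 of 10 neuron and 0 of 6 liver and yolk sac markers. The other 4 airway secretory genes were highest in teratoma 2, among them PIGR on 31, 209 and 15 reads and CYP4B1 on 12, 87 and 13. The summed level of the list was 94.9, 72.9 and 30.5 RPKM, and 9 of the 12 genes were lowest in teratoma 3. The ratio of teratoma 1 to teratoma 3 was 3.11 for this sum, against 19.2 for SCGB1A1. AGR2 and WFDC2 held most of the sum in each library, so it mainly follows these 2 genes. SCGB1A1 amounted to 37.0%, 24.3% and 5.99% of the list's summed RPKM in teratomas 1, 2 and 3.

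Genes of surfactant processing in alveolar type 2 cells were detected in 4 of 10 cases. The list was led by LPCAT1, a lysophospholipid acyltransferase, at 40.0, 43.4 and 56.7 RPKM in teratomas 1, 2 and 3, and CTSH, a cathepsin that trims the SFTPB precursor, at 25.8, 23.3 and 8.40. ABCA3, the lipid transporter of lamellar bodies, stood at 8.65, 11.1 and 24.5 RPKM and was highest where neuron markers were highest. The part of neural tissue in the ABCA3 level was not tested. The 5 genes under 1 RPKM in every library included NAPSA, an aspartic protease of type 2 cells, on 13, 24 and 5 reads. SFTA3, a neighbour of NKX2-1 in the genome, had 2, 40 and 2 reads. The list's summed level was 87.0, 88.8 and 96.9 RPKM, and none of its genes varied. LPCAT1 and ABCA3, the 2 genes highest in teratoma 3, held most of the sum there. In contrast, 7 of the 10 genes were lowest in teratoma 3. Of the 8 alveolar type 1 markers 7 were detected, led by PDPN, a mucin-type glycoprotein, at 12.3, 19.7 and 11.98 RPKM and EMP2 at 9.93, 9.05 and 4.42, both of which other tissues make. AGER, the receptor most restricted to type 1 cells, stood at 2.49, 1.84 and 1.71 RPKM, and its entry had 7 genome placements.

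**Figure D3:**
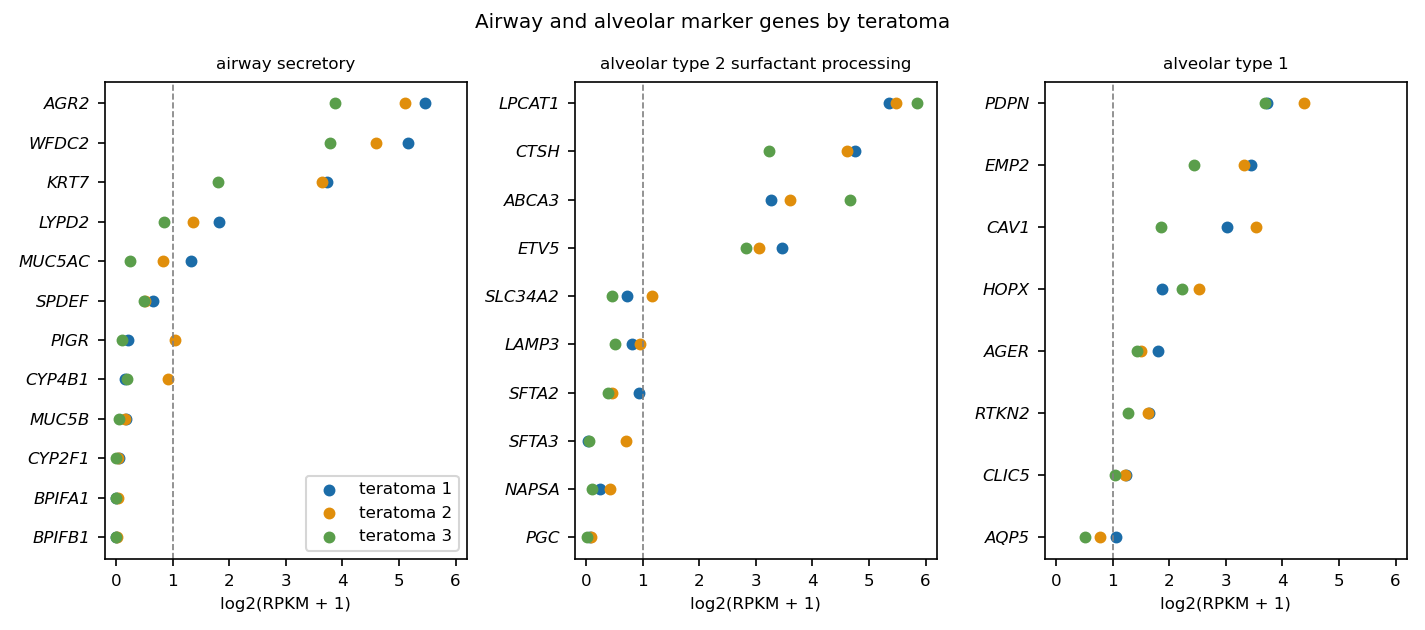
Level of each airway secretory, alveolar type 2 and alveolar type 1 marker on the log2(RPKM + 1) scale, with 1 point per teratoma and the level of 1 RPKM as a dashed line. Detection reaches 3 of 12, 4 of 10 and 7 of 8 genes, and BPIFA1, BPIFB1, CYP2F1 and NAPSA lie near 0.

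Factors known to act upstream of lung genes were detected in 9 of 10 cases, and NKX2-1 was the exception. NKX2-1, which specifies lung, thyroid and ventral forebrain, stood at 1.44, 2.18 and 0.442 RPKM in teratomas 1, 2 and 3, on 145, 218 and 42 reads. It was highest in teratoma 2, where SCGB1A1 was intermediate. FOXA1 and FOXA2 led the list at 37.2, 34.9 and 13.0 RPKM and at 36.4, 30.2 and 10.1 RPKM. The level was lowest in teratoma 3 for 9 of the 10 genes, and the summed level was 165, 171 and 54.8 RPKM. Because NKX2-1 is also a thyroid and forebrain factor, those lists were read beside it. Of 5 thyroid genes 2 were detected, PAX8 (2.77, 8.79 and 6.89 RPKM) and FOXE1 (8.36, 3.85 and 1.23), which other tissues also make. TG, the thyroglobulin gene, had at most 0.0981 RPKM in a library. Of 6 ventral forebrain genes 3 were detected, led by DLX1 (29.1, 25.1 and 44.4 RPKM) and SIX6 (32.2, 14.6 and 20.04), while LHX6 and LHX8 were at 0.81 and 1.05 RPKM in teratoma 1 and lower elsewhere. The part of each tissue in the NKX2-1 level was not tested.

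Basal and ciliated cell markers were detected in part. The 6 basal cell markers, of which 3 were detected, summed to 42.9, 101 and 28.7 RPKM in teratomas 1, 2 and 3, and 5 of them were highest in teratoma 2. KRT5, a keratin of basal layers that epidermis shares, stood at 4.14, 54.1 and 9.95 RPKM, and NGFR, a receptor that neural crest shares, at 34.3, 16.4 and 13.4. Of 10 ciliated cell markers 7 were detected, with sums of 79.5, 78.2 and 45.0 RPKM. TPPP3, a tubulin-binding protein, stood at 26.9, 27.6 and 15.0 RPKM and FOXJ1, the ciliogenesis factor, at 26.1, 25.1 and 16.3, and both are also used by ependyma and choroid plexus.

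Epithelium in general differed less between libraries than SCGB1A1. The 8 general epithelium markers, all detected, summed to 4.06 times as much in teratoma 1 as in teratoma 3. KRT19 and KRT8, keratins of simple epithelia, stood at 235, 277 and 66.0 RPKM and at 205, 205 and 44.9 RPKM in teratomas 1, 2 and 3. SCGB1A1 came to 4.21%, 2.10% and 0.889% of the list's sum, so it was lower in teratoma 3 relative to epithelial transcripts as well. The 6 liver and yolk sac genes, led by AFP at 452, 1889 and 159 RPKM and APOA1 at 371, 1205 and 109, were each highest in teratoma 2. Of the 7 intestine genes 4 were detected and 2 were under 1 RPKM in every library. They summed to 77.9, 82.9 and 23.4 RPKM, led by CDX2 (25.8, 31.3 and 8.98) and VIL1 (28.3, 24.0 and 6.72). None of the 7 stomach genes was detected, with TFF1 at 4.40, 13.2 and 0.606 RPKM and CLDN18, which lung also expresses, at 5.27, 1.47 and 0.253. The part of the epithelial share of each tumour in the SCGB1A1 differences was not tested.

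**Figure D4:**
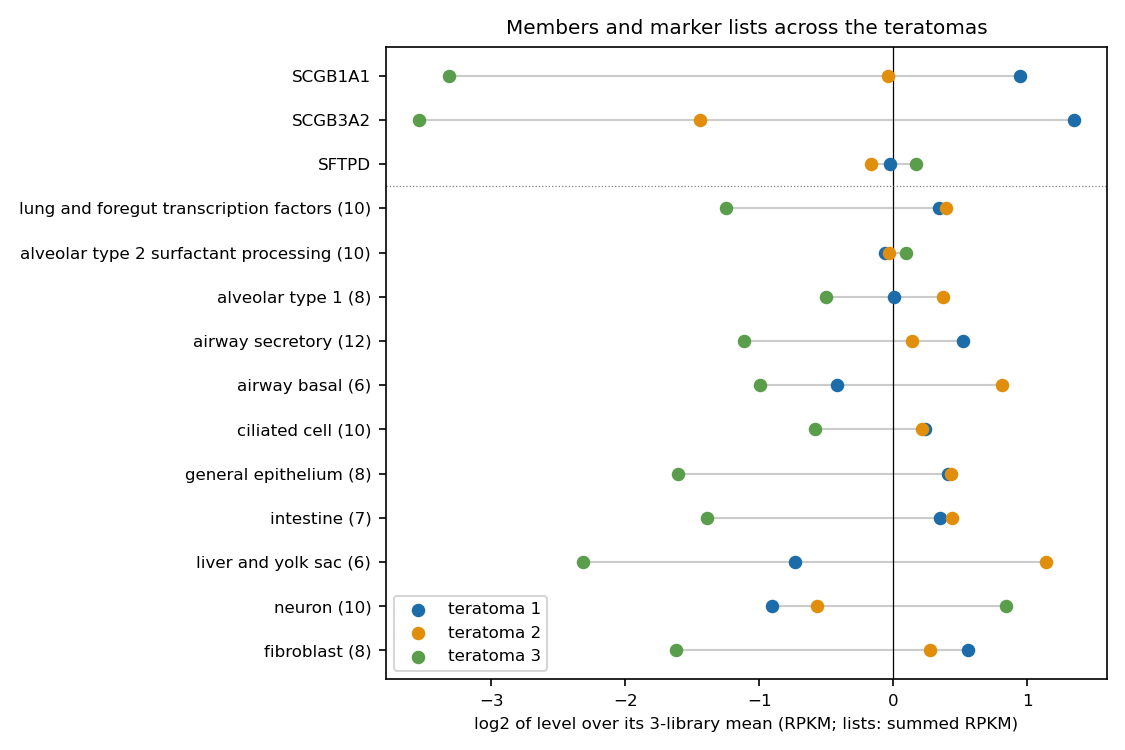
Level in each teratoma over the 3-library mean, on a log2 scale, for SCGB1A1, SCGB3A2 and SFTPD (RPKM) and for marker lists (summed RPKM, number of genes in brackets). SCGB1A1 and SCGB3A2 have the widest spans of the items shown, teratoma 3 is low for general epithelium (205 RPKM against 833 and 843) and high for neuron markers (2530 against 754 and 951), and SFTPD lies near 0 throughout.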

How the data were processed

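Polyadenylated RNA of teratoma was sequenced as 3 libraries after NEBNext Ultra II library preparation, per the labels' protocols. The submitters' processing notes name Bowtie2 and hg19. Not given in the sources used here were the counting tool, the strand setting and the handling of host or multiply placed reads. The deposited RPKM values equal the deposited read counts divided by transcript length and by 1 total per library, within 0.0005%, so that total was recovered from the values. Other deposited columns give the transcript length and what appears to be the number of genome placements. The 59443 entries were reduced to 27307 genes by highest mean RPKM. Counts were used for exact Poisson intervals and for conditional binomial intervals of ratios. With 1 group no model of differences was fitted. Log values are log2(RPKM + 1). Members, marker lists and tests were chosen with earlier results of these data known. Named beside the members were the 2 genes of each list with the highest mean, NKX2-1, and the 3 nearest genes for members with a mean of at least 1 RPKM. Further list genes were named after their values were seen. The range statistic was tested on simulated counts, with changes placed only in genes whose mean exceeded that of every member. No change at the members' own levels was simulated. Python 3.11.15, numpy 2.4.6, pandas 2.3.3, scipy 1.17.1 and matplotlib 3.10.9 were used. Alternatives covered entries summed or averaged, scaling, detection level, pseudocount, a filter on low values and each library left out.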

Additional observations from a re-analysis of the deposited data

How the results depend on the processing

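The count of 1 detected member was 2 with detection at 0.1 or 0.5 RPKM and after rescaling to 1000000 per library, and 0 with detection at 5 RPKM; it was 1 with each library left out. The count of 1 varying member was 2 after rescaling, with a pseudocount of 0.1 or with a difference of 1, 5 with a pseudocount of 0.01, and between 0 (without teratoma 3) and 1 with a library left out. The shares over all genes were taken at the main settings only. These alternative counts of detected and varying members therefore have no background and are not results about the members. Rescaling set the summed RPKM of each library to 1000000, multiplied all levels by 3.36 to 3.62 and put the mean of SCGB1A1 at 62.1 on that scale. The cutoffs and the pseudocount were kept on this larger scale, so both counts of 2 after rescaling reflect the change of unit. With a library left out the range of SCGB1A1 was 0.95 to 3.68, its mean 9.77 to 26.4 RPKM and its excess over SCGB3A2 2.35 to 3.54. SCGB3A2 minus SFTPD turned to -0.094 after rescaling, -0.29 and -0.53 with pseudocounts of 0.1 and 0.01, and -0.45 without teratoma 1 (0.46 without teratoma 3). SCGB3A1 minus SFTPA2 turned to -0.11 with entries summed, -0.0052 after rescaling, -0.081 and -0.91 with these pseudocounts, and -0.061 without teratoma 3 (0.057 without teratoma 2). Without teratoma 2, SFTPC minus SCGB3A1 was -0.045 (0.24 without teratoma 3) and SFTPA2 minus SFTPB -0.0011 (0.062 without teratoma 1). The causes were not tested. Counts of 0 to 11 reads per library limit any order among the lowest 5 members. SFTPD minus SFTPC was 0.11 (exact p 0.75) with entries summed, and 2.00 and 3.39 with pseudocounts of 0.1 and 0.01. No samples could be paired between groups because there was a single group. Neighbouring members were compared as pairs within libraries.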

Other observations

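The 8 secretoglobins outside the set were low in each teratoma. None was detected, 7 were under 1 RPKM in every library and 3 had no read in any. SCGB2A1, the mammaglobin relative, had 15, 24 and 7 reads in teratomas 1, 2 and 3, or 0.623, 1.01 and 0.308 RPKM. SCGB2B2 had 48, 65 and 69 reads, or 0.320, 0.437 and 0.488 RPKM. Their summed level was 0.943, 1.71 and 1.32 RPKM, highest in teratoma 2, where SCGB1A1 was intermediate.

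Among the other collectins, COLEC12, a scavenger receptor of vessels and stroma, was the 1 detected of 4, at 18.5, 13.4 and 4.62 RPKM, above SFTPD in every library. COLEC11, a soluble collectin of liver and kidney, stood at 1.48, 4.52 and 0.837 RPKM, and MBL2, the mannose-binding lectin of liver, had 0, 2 and 0 reads. Of the 6 myeloid leukocyte genes 1 was detected, CD68, at 7.19, 10.2 and 3.45 RPKM, and 4 were lowest in teratoma 3. C1QA stood at 2.82, 0.273 and 1.17 RPKM, lowest in teratoma 2. PTPRC had 15, 29 and 17 reads, fewest in teratoma 1.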
